A study of Mus musculus with 10 samples.

Results

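The genes described here encode the proteins that build, cut, cap, crosslink and recycle actin filaments. They were chosen from a named list of 51 symbols, and all 51 were found among the 23337 genes of the authors' deposited table and carried an adjusted p-value there. The libraries came from cardiomyocytes of wild-type mice that received AAV9 virus on postnatal day 1, at 5e+08 viral genomes per gram of body weight, and whose cells were collected on postnatal day 14. In 5 GFP libraries the virus was AAV9-cTNT-GFP, and in 5 dnMKL1 libraries it was AAV9-cTNT-dnMKL1-GFP, so both groups share the injection, the GFP and a promoter (cardiac troponin T) that drives expression in heart muscle cells. The labels' design text calls the 5 libraries of a group biological replicates, and the cells were purified by fluorescence-activated sorting after collagenase perfusion. dnMKL1 is a dominant-negative form of MKL1 (MRTF-A), and the comparison asks what its presence changes in heart muscle cells after birth.

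Actin cycles between single molecules and filaments. Cofilins sever old filaments with the help of Wdr1 and cyclase-associated proteins, profilins and thymosins hold the released monomers, capping protein closes the fast-growing end, and the Arp2/3 complex and formins start new filaments. MKL1 is tied to this cycle, since it binds actin monomers and is released to join serum response factor (SRF) on DNA when monomers become scarce. Many genes of actin and its partners are known SRF targets. In the heart, the thin filaments of the sarcomere are long-lived, and Cfl2 and Coro6 are the cofilin and the coronin known mainly from striated muscle or other differentiated cells.

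The table analysed here gives 1 base mean, 1 log2 fold change and 1 standard error (SE) per gene, so values of single libraries are not shown and overlap between groups cannot be read. Group levels below are implied means in normalized counts, which follow from base mean and fold change together. Intervals are 95% intervals from the deposited SE. The estimated depth of the GFP group lay between 8803029 and 17123577 counts per library, and that of the dnMKL1 group between 8835136 and 17228615. Mkl1 had implied means of 83.9 normalized counts in GFP and 74899 in dnMKL1 libraries, counting vector and endogenous reads alike, and this sets the direction of every fold change. Its relative Mkl2 rose by 0.43 on the log2 scale (SE 0.08 in the authors' deposited table), and Srf fell to 0.574 times its GFP level (adjusted p = 2.6e-13 in the authors' deposited table). The spread between libraries that the SEs imply, as a coefficient of variation, had a median of 11.1% over the members, from 5.63% for Rdx to 50.4% for Fhod1, whose base mean of 9.66 was the smallest.

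At an adjusted p-value under 0.05 (Benjamini-Hochberg, the authors' deposited table), 20 of the 51 members were higher in dnMKL1 libraries and 9 were lower, while 22 did not pass. That is 39.2% higher and 17.6% lower, where 16.6% of all 14056 genes tested were higher and 17.4% were lower. The members' median log2 fold change was 0.17, beside 0.021 over all genes tested. Fold changes in this table depend on expression level, so the count was also read within level classes. Of 22 members with base means from 100 to 1000, 12 were higher, against 20% of all genes of that class, and 1 was lower, against 19.3%. Among 23 members from 1000 to 10000, 7 were higher (14.4% of all genes) and 8 were lower (40.1%). Of 6 members under 100, 1 was higher (13.8%) and 0 were lower (5.52%), and 0 of the 6 had a fall at an unadjusted p-value under 0.05. Most changes were modest, and 2 members passed a 2-fold change, Gsn and Coro1c.

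The split between directions depended on scaling. Setting the summed normalized counts of the groups equal adds 0.29 to every log2 fold change, and 30 members were then higher and 4 lower, which is 58.8% and 7.84% where 40.4% and 6.6% of all genes were called. The share of higher genes among called members went from 69.0% to 88.2%. Over all genes the calls went from 2340 higher and 2452 lower to 5685 and 927, so this share rose there too. The 20 higher members all stayed higher. Of the 9 lower members, Wdr1, Pfn2, Coro6 and Ssh2 stayed lower, Cfl2, Twf2, Capza2 and Capzb no longer passed, with Capza2 above 0, and Rdx became higher. With Mkl1 and the 10 most abundant genes left out of the sums the shift was 0.21, with 29 members higher (32.3% of all genes) and 5 lower (8.51%). With the median set to 0 the counts were 20 (16.4%) and 9 (17.7%). At an adjusted p-value under 0.01, 18 members were higher (11.9% of all genes) and 8 lower (13.4%), and under 0.1 they were 22 (19.8%) and 10 (19.9%). Adjustment over all p-values gave 19 (12.8%) and 9 (13.7%), and over base means of at least 10 it gave 20 (19.1%) and 9 (20.6%). Asking also for an absolute log2 fold change of at least 0.5 left 16 higher (10.6%) and 5 lower (8.86%), and a minimum of 1 left 2 (4.65%) and 0 (2.05%). All values below are on the authors' scaling unless stated.

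**Figure D1:**
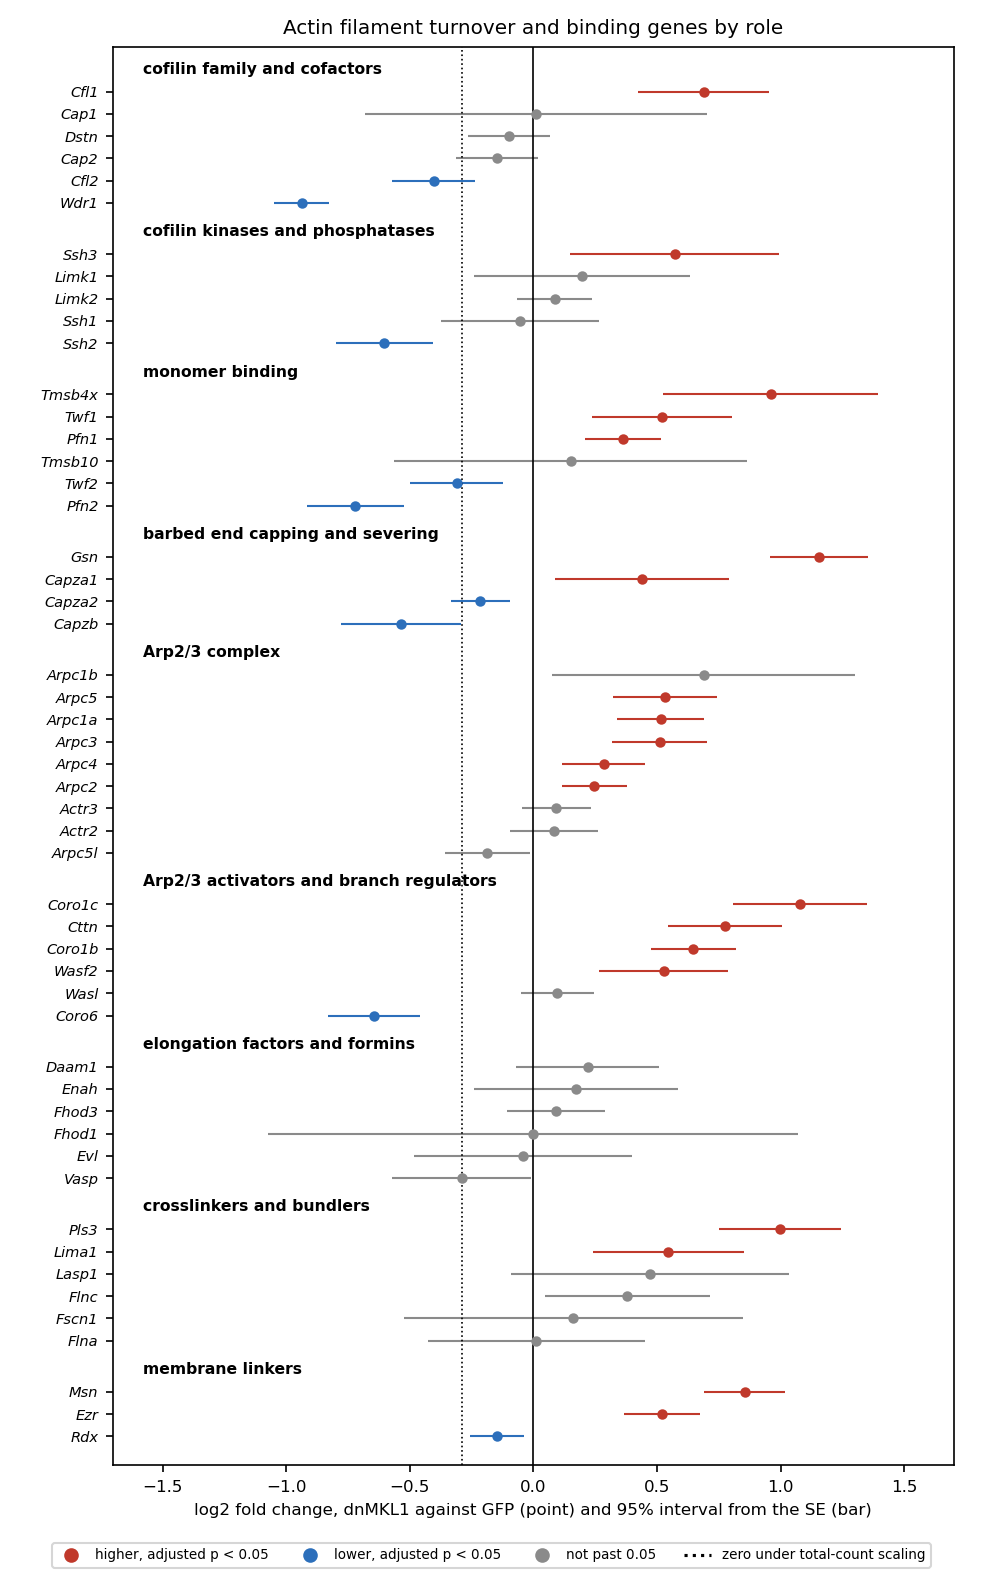
Log2 fold change of each of the 51 members, dnMKL1 against GFP (x axis; points) with its 95% interval from the deposited SE (bars), grouped by role on the y axis; red and blue mark adjusted p-values under 0.05, higher and lower. The dotted line at -0.29 is where 0 lies under total-count scaling, which turns the sign of 8 members left of the solid line (Dstn, Cap2, Capza2, Arpc5l, Evl, Rdx, Ssh1 and Fhod1).

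**Figure D2:**
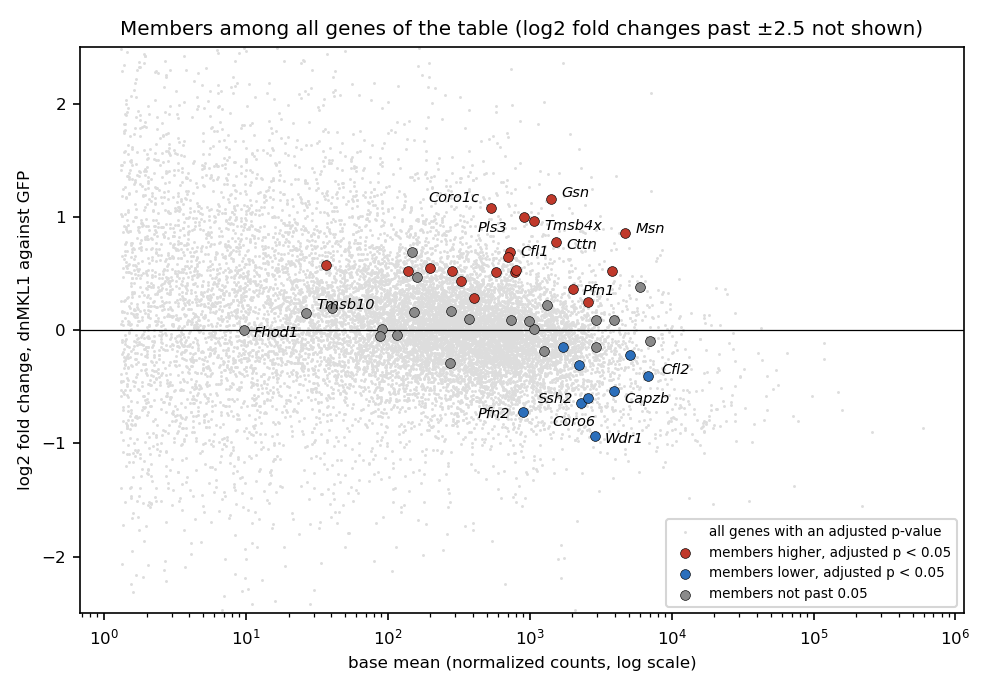
Base mean in normalized counts (x axis, log scale) against log2 fold change, dnMKL1 against GFP (y axis), for all genes with an adjusted p-value (light grey) and for the members (large points, coloured by call). The 20 higher members lie between base means of 36.9 and 4693 and the 9 lower ones between 903 and 6863; 5 of the 9 lower calls are lost under total-count scaling.

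Among the proteins that take filaments apart, Wdr1 showed the clearest change. Wdr1 (also called AIP1; chr5:38526813-38563221 on GRCm38) speeds up the cutting of filaments that carry cofilin. Its implied mean was 3770 normalized counts in GFP and 1969 in dnMKL1 libraries, a fall to 0.522 times (interval 0.484 to 0.564; adjusted p = 5.9e-58 in the authors' deposited table). The interval is narrow, and the spread between libraries implied by the same SE was 5.87%. Of the cofilin family, Cfl2, the muscle cofilin (chr12:54858809-54862877), fell from 7815 to 5911 normalized counts, or 0.756 times (0.674 to 0.849; adjusted p = 2.1e-05 in the authors' deposited table). Cfl1, the form found in most non-muscle cells (chr19:5490455-5495201), rose from 554 to 893, or 1.61-fold (1.34 to 1.94; adjusted p = 4.0e-06 in the authors' deposited table). Dstn (destrin or ADF), the third of the family, had 7290 and 6814 normalized counts, with an interval of the fold from 0.833 to 1.05. Per kilobase of transcript, Dstn and Cfl2 stood at 3815 and 2658 normalized counts in the GFP group and Cfl1 at 235. Cfl1 thus remained the smallest of the 3, going from 3.51% to 6.37% of the family. Exons of Cfl1 share 16.5% of their length with Snx32 on the opposite strand, and 36.2% of its transcript is at least 97% identical to another gene's, so its level is less certain.

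The cyclase-associated proteins recharge and release monomers. Cap2, the main form here with 832 normalized counts per kilobase in the GFP group, had a fold of 0.903 (0.805 to 1.01). Cap1 had 33.0 per kilobase and a fold of 1.01 with a wide interval, from 0.624 to 1.63. Neither passed the test.

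The switches of cofilin are the LIM kinases, which inactivate it by phosphorylation, and the slingshot phosphatases, which reactivate it. Ssh2, the most abundant of the 3 phosphatases at 338 normalized counts per kilobase in the GFP group against 10.7 and 10.9 for Ssh1 and Ssh3, fell from 3102 to 2042 normalized counts, or 0.658 times (0.574 to 0.755; adjusted p = 3.5e-08 in the authors' deposited table). Ssh3 rose from 29.7 to 44.1, or 1.49-fold (1.11 to 1.99; adjusted p = 0.026 in the authors' deposited table), at a low level. Ssh1 had a fold of 0.964 (0.771 to 1.20), not past the test. The kinases did not pass: Limk2 had 711 and 755 normalized counts and a fold of 1.06 (0.956 to 1.18), and Limk1 had a fold of 1.15 (0.846 to 1.55). Ssh2 and Coro6, described below, lie 2190 bases apart on the same strand of chromosome 11 in GENCODE M21, and the intervals of their folds overlap. Whether reads of one were counted to the other was not tested.

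The monomer-binding proteins split by paralogue. Pfn1, the general profilin (chr11:70651850-70654644), rose from 1757 to 2259 normalized counts, or 1.29-fold (1.16 to 1.43; adjusted p = 3.3e-05 in the authors' deposited table). Pfn2, known mainly from neurons (chr3:57841895-57848079), fell from 1124 to 682, or 0.607 times (0.530 to 0.695; adjusted p = 2.2e-11 in the authors' deposited table). Per kilobase Pfn1 thus went from 81.0% to 90.0% of the profilins. Tmsb4x, thymosin beta-4, the main buffer of free monomers (chrX:167207093-167209315), rose from 732 to 1424 normalized counts, or 1.95-fold (1.44 to 2.63; adjusted p = 1.1e-04 in the authors' deposited table). Its implied spread between libraries was 24.0%, more than the median member. Tmsb10, with 25.3 and 28.1 normalized counts, was scarce, and 59.9% of its transcript is alike to other genes'. The twinfilins bind monomers and the capped end: Twf1 rose 1.43-fold (1.18 to 1.74; adjusted p = 0.0016 in the authors' deposited table) from 114 to 163, with 34.8% of its transcript alike to other genes', and Twf2, the abundant muscle form, fell to 0.807 times (0.708 to 0.918; adjusted p = 0.0052 in the authors' deposited table) from 2473 to 1995.

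Capping protein is a pair of an alpha and a beta subunit, and all 3 of its genes passed. Over all genes 16.6% were higher and 17.4% lower. At base means from 1000 to 10000, where Capzb and Capza2 lie, 14.4% were higher and 40.1% lower. Capzb, the beta subunit, fell from 4629 to 3195 normalized counts, or 0.690 times (0.583 to 0.817; adjusted p = 1.2e-04 in the authors' deposited table). Capza2, the abundant alpha subunit, fell to 0.862 times (0.793 to 0.936; adjusted p = 0.0023 in the authors' deposited table). Capza1, with 277 and 376 normalized counts, rose 1.36-fold (1.06 to 1.73; adjusted p = 0.044 in the authors' deposited table). This last call is the weakest of the 20. With adjustment over all p-values it had an adjusted p of 0.054, and 93.0% of the Capza1 transcript is alike to other genes'. Gsn, gelsolin, which cuts and caps filaments in response to calcium (chr2:35256380-35307892), had the largest rise of the members, from 876 to 1951 normalized counts, or 2.23-fold (1.94 to 2.55; adjusted p = 2.5e-27 in the authors' deposited table).

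The 9 genes of the Arp2/3 complex, which starts branches on existing filaments, gave 5 rises and 0 falls at an adjusted p-value under 0.05 in the authors' deposited table, while 7 passed 0.05 before adjustment, 6 of them higher and Arpc5l lower. Over all genes 16.6% were higher and 17.4% lower, or 20% and 19.3% at base means from 100 to 1000. The rises lay between 1.19-fold for Arpc2 and 1.45-fold for Arpc5, with Arpc4 at 1.22, Arpc3 at 1.42 and Arpc1a at 1.43. The core subunits that resemble actin were near 1, with folds of 1.06 (0.937 to 1.20) for Actr2 and 1.07 (0.969 to 1.17) for Actr3. Both pass as higher under total-count scaling, though 91.5% of the Actr3 transcript is alike to other genes'. Arpc1b had a fold of 1.61 with an interval from 1.05 to 2.46 and did not pass (adjusted p = 0.074 in the authors' deposited table), and 69.4% of its transcript is alike to other genes'. Arpc5l, the more abundant ARPC5 form in the GFP group with 997 normalized counts per kilobase against 340 for Arpc5, had a fold of 0.878 (0.780 to 0.989; adjusted p = 0.085 in the authors' deposited table), and its log2 fold change turns to 0.10 under total-count scaling. Summed per kilobase, the complex stood at 5466 normalized counts in the GFP and 6345 in the dnMKL1 group.

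Of the genes that switch the complex on or undo its branches, 4 of 6 rose and 1 fell, beside 16.6% and 17.4% of all genes. Cttn, cortactin, which stabilizes branches, rose from 1137 to 1945 normalized counts, or 1.71-fold (1.46 to 2.01; adjusted p = 1.2e-09 in the authors' deposited table). Wasf2 (WAVE2), an activator at the cell edge, rose 1.44-fold (1.20 to 1.73; adjusted p = 4.7e-04 in the authors' deposited table), and Wasl (N-WASP) had a fold of 1.07 (0.965 to 1.18). The coronins, which remove branches, parted. Coro1c (chr5:113842436-113908758) rose from 341 to 721 normalized counts, or 2.11-fold (1.75 to 2.55; adjusted p = 2.9e-13 in the authors' deposited table). Coro1b rose from 551 to 863, or 1.57-fold (1.39 to 1.76; adjusted p = 3.8e-12 in the authors' deposited table). The exons of Coro1b share 13.5% of their length with Ptprcap on the same strand, or 22.9% of its transcript. Ptprcap had a base mean of 0.629 against 707 for Coro1b, and how reads of the shared stretch were counted was not tested. Coro6 (chr11:77462411-77470484) fell from 2819 to 1802, or 0.639 times (0.561 to 0.728; adjusted p = 3.8e-10 in the authors' deposited table). Per kilobase Coro6 went from 83.6% to 65.7% of these 3 coronins, and from 72.1% to 49.2% when the longest coding transcripts set the lengths.

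The elongation factors and formins, which lengthen unbranched filaments, gave 0 calls among 6 genes in the authors' deposited table. Over all genes 16.6% were higher and 17.4% lower there. Of the 6, 1 had an unadjusted p-value under 0.05. That gene was Vasp, with 301 and 246 normalized counts and a fold of 0.818 (0.673 to 0.994). Fhod3, the formin of the cardiac sarcomere, had 3776 and 4020 normalized counts and a fold of 1.06, and its interval of 0.928 to 1.22 leaves room for a modest change in either direction. Daam1 had a fold of 1.16 (0.952 to 1.42), Enah of 1.13 (0.846 to 1.50) and Evl of 0.971 (0.716 to 1.32). Fhod1 was too scarce for a narrow interval (0.475 to 2.10). Fhod3 and Daam1 pass as higher under total-count scaling.

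Of the crosslinkers and bundlers, 2 of 6 rose and 0 fell, beside 16.6% and 17.4% of all genes. Their 6 log2 fold changes were all above 0, as were 7315 of the 14056 over all genes. Pls3, plastin 3, which packs filaments into bundles (chrX:75785654-75875182), rose from 607 to 1211 normalized counts, a rise of 99.6% (interval of the fold 1.68 to 2.37; adjusted p = 9.2e-14 in the authors' deposited table). Lima1 (EPLIN), which stabilizes filaments at junctions and stress fibres, rose from 162 to 236, or 1.46-fold (1.18 to 1.80; adjusted p = 0.0023 in the authors' deposited table). Flnc, the muscle filamin at the Z-disc and in repair, had 5246 and 6828 normalized counts and a fold of 1.30 (1.03 to 1.64) that did not pass on the authors' scaling (adjusted p = 0.069 in the authors' deposited table). Flna had 1072 and 1081, a fold of 1.01 (0.744 to 1.37). The intervals of Fscn1, from 0.696 to 1.80, and Lasp1, from 0.939 to 2.05, were wide, and Lasp1 passes under total-count scaling.

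The CArG box, the site SRF binds, was searched in the window from 250 bases before to 50 after the gene start in RefSeq (GRCm38.p6), since dnMKL1 acts on the partner of SRF. A match to this motif on one strand is also a match on the other. Of 46 members with an entry, 2 held it (4.35%), beside 1.81% of 27025 symbols. They were Arpc4 and Lima1, both higher in dnMKL1 libraries. The stretch of Lima1 is shown because its box lies closest to a start, with its first base 47 bases before it, on the minus strand at chr15:99820162-99820221, inside the Lima1 gene and, on the opposite strand, Gm17057, but in no exon of GENCODE M21. Capitals mark the box.
Lima1: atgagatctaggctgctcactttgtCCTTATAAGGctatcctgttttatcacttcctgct
In Arpc4 the box CCTAATTTGG lies at the edge of the window, at chr6:113377863-113377872 on the plus strand, inside the first exon of Tada3, which runs the other way. These are matches of letters, not shown to be sites, and boxes outside the window were not searched.

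The membrane linkers, which tie filaments to the plasma membrane, moved by member. Msn, moesin (chrX:96096042-96168552), rose from 3343 to 6043 normalized counts, or 1.81-fold (1.61 to 2.03; adjusted p = 9.2e-22 in the authors' deposited table). Ezr, ezrin, rose from 3103 to 4450, or 1.43-fold (1.29 to 1.60; adjusted p = 1.1e-09 in the authors' deposited table). Rdx, radixin, fell from 1802 to 1626, or 0.903 times (0.837 to 0.974; adjusted p = 0.027 in the authors' deposited table), a small change that turns to a rise under total-count scaling. The family sum went from 2262 to 3351 normalized counts per kilobase, a ratio of 1.48, and Msn went from 38.5% to 46.9% of it.

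Paralogues were then set against each other, since a difference between 2 fold changes does not depend on the scaling of the groups. Of 19 pairs, the 95% interval of the difference excluded 0 in 10. It did so in 7 when widened for 19 comparisons, and in 9 when the SEs of a pair were added in full, which covers any correlation between its genes. The 19 pairs were chosen with earlier results known and leave out some paralogues, such as Ssh2 against Ssh3 and Ezr against Rdx. No share over other pairs of genes was worked out, so these counts are not read as particular to paralogues. Cfl1 exceeded Cfl2 by 1.09 (0.78 to 1.40) on the log2 scale, Pfn1 exceeded Pfn2 by 1.08 (0.83 to 1.33), and Msn exceeded Rdx by 1.00 (0.80 to 1.20). The difference was 0.83 (0.49 to 1.17) for Twf1 over Twf2, 0.72 (0.45 to 0.99) for Arpc5 over Arpc5l, and 0.65 (0.28 to 1.02) for Capza1 over Capza2. On the authors' scaling the paralogues were called in opposite directions in 5 pairs, Cfl1 and Cfl2, Pfn1 and Pfn2, Twf1 and Twf2, Capza1 and Capza2, and Msn and Rdx. Of these 5 pairs, only Pfn1 and Pfn2 kept opposite calls under total-count scaling. In the cofilin, twinfilin and capping protein pairs the scarcer paralogue per kilobase rose and, on the authors' scaling, the more abundant fell, while in the other two pairs the more abundant Pfn1 and Msn rose. The coronins were paired with Coro6 only after their values had been seen, and the differences were 1.29 (1.04 to 1.55) for Coro1b and 1.72 (1.39 to 2.05) for Coro1c. Both coronin pairs kept opposite calls under total-count scaling. So did Ssh3, higher, and Ssh2, lower, which were not set against each other here.

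In 9 pairs the interval held 0. The bounds were tight for Actr2 and Actr3, whose difference was -0.01 (-0.24 to 0.22). They were wide for Tmsb4x and Tmsb10, at 0.81 (-0.03 to 1.64), for Arpc1a and Arpc1b, at -0.17 (-0.81 to 0.46), and for Cap1 and Cap2, at 0.16 (-0.55 to 0.87). In each of these pairs 1 gene had a large SE, 0.36 for Tmsb10, 0.31 for Arpc1b and 0.35 for Cap1. Their implied spreads between libraries were 34.7%, 33.1% and 37.2%. A difference between Flna and Flnc of -0.37 (-0.92 to 0.18) was likewise not resolved.

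**Figure D3:**
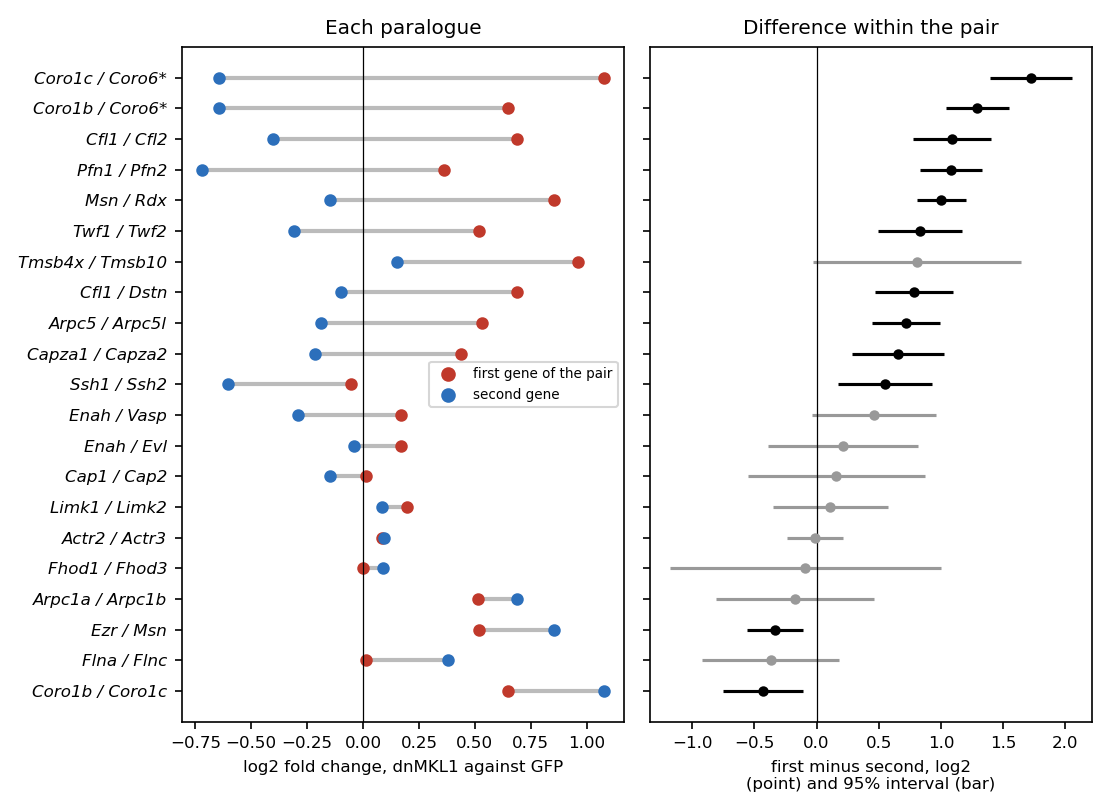
Left, log2 fold change, dnMKL1 against GFP (x axis), of the first (red) and second (blue) gene of each pair (y axis); right, the difference first minus second with its 95% interval (x axis; black where the interval excludes 0). The interval excludes 0 in 10 of 19 pairs, with no share over other pairs of genes to set beside it. The 2 starred coronin pairs were added after the values were seen. Total-count scaling would move all left-hand points by 0.29, which ends the lower calls of Cfl2, Twf2, Capza2 and Rdx. It leaves the right-hand panel as it is.

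**Figure D4:**
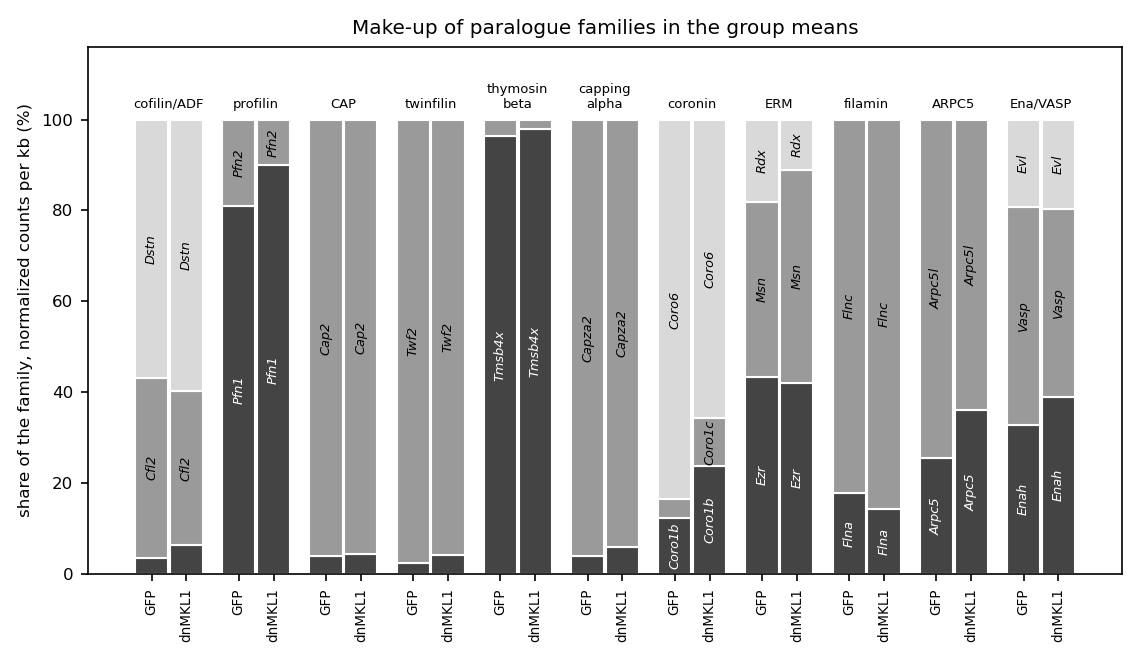
Share of each paralogue in its family in percent of normalized counts per kilobase (y axis), in the implied means of the GFP and dnMKL1 groups (x axis), with no error bars since values per library were not used. Pfn1 goes from 81.0% to 90.0% of the profilins and Coro6 from 83.6% to 65.7% of the coronins, while Cap1 has 3.81% and 4.23% of its family; as shares within a family, these do not depend on the scaling.

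The actins are the substrate of these proteins. Of 6 actin genes, 3 fell and 0 rose at an adjusted p-value under 0.05 in the authors' deposited table, with 0 rises among unadjusted p-values under 0.05. Over all genes 17.4% were lower, and 40.1% at base means from 1000 to 10000, where Acta1, Acta2 and Actb lie. At base means from 100 to 1000, where Actg1 lies, 19.3% were lower. Actc1 lies above 10000, a level for which no share is given here. Actc1, cardiac alpha-actin, fell from 326267 to 111228 normalized counts, or 0.341 times. Actg1, cytoplasmic gamma-actin, fell from 1119 to 404, or 0.361 times, and Acta2, smooth muscle alpha-actin, to 0.478 times. Actb had a fold of 0.771, and Acta1 of 0.868, and neither passed. Actg2 was scarce, with 4.64 and 6.48 normalized counts, and did not pass either. The difference of these changes from those of the binding proteins was not tested.

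Other regulators of actin were read from lists of the same pathway. Of 44 further actin-binding genes tested, 17 rose and 6 fell, beside 16.6% and 17.4% of all genes. Lcp1 (plastin 2), a bundling protein like Pls3 that is known from blood cells, rose from 48.1 to 389 normalized counts, or 8.07-fold. Cnn2 rose 2.31-fold and Gmfb, which removes Arp2/3 branches, went up from 666 to 1330 normalized counts. Svil fell to 0.529 times, Actr3b to 0.594 times and Nexn, a Z-disc actin binder, to 0.614 times.

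The subunits around WAVE and WASP gave 3 rises and 1 fall among 20 tested, or 15.0% and 5.00%, where 16.6% and 17.4% of all genes were called, so the rises were no more frequent than over all genes. Abi1 rose 1.40-fold, Cyfip1 1.26-fold and Nck2 1.20-fold, whereas Cyfip2, the paralogue of Cyfip1, fell to 0.765 times. Of 13 other nucleators tested, 2 rose and 1 fell, or 15.4% and 7.69%, again near or under the shares over all genes: Diap2 (Diaph2) by 1.73-fold, Spire1 by 2.12-fold, and the sarcomeric Lmod3 to 0.625 times.

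**Figure D5:**
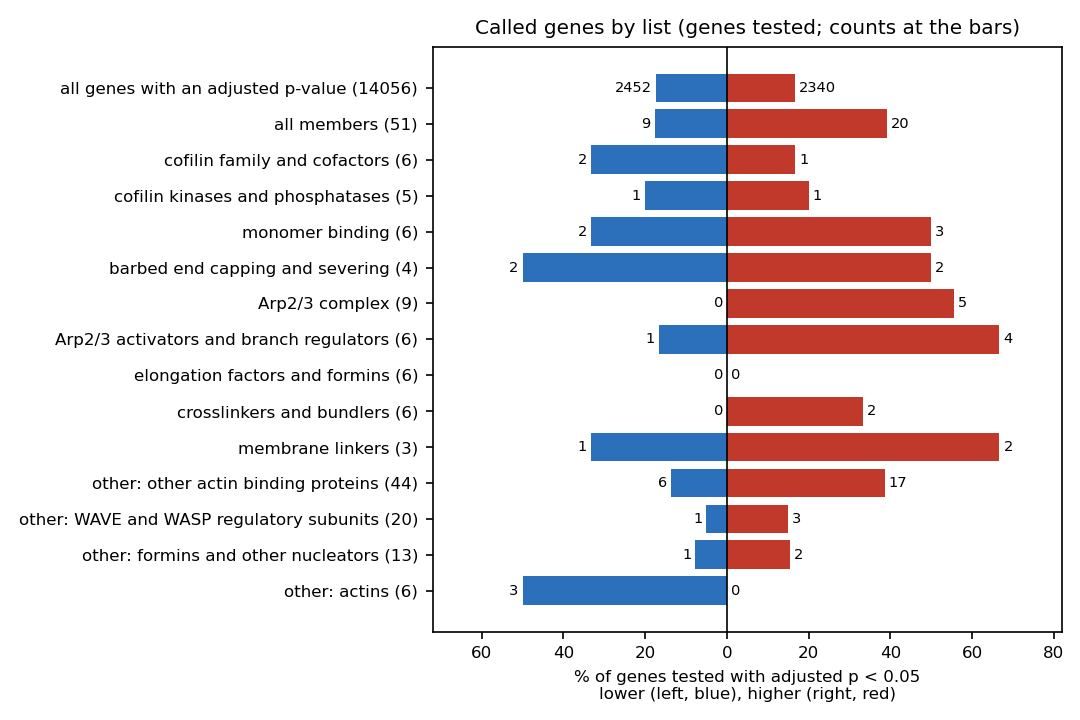
Share of tested genes with an adjusted p-value under 0.05 (x axis, percent), lower to the left and higher to the right, for all genes, the members, their 9 roles and 4 other lists (y axis; number tested in brackets, counts at the bars). The members show 20 higher and 9 lower genes, or 30 and 4 under total-count scaling. Under that scaling, which is not drawn, 40.4% of all genes were higher and 6.6% lower.

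Several members that rose are also expressed in non-muscle cells, and so markers of other cells are given beside them. Of 12 fibroblast markers 4 were higher and 0 lower, beside 16.6% and 17.4% of all genes, and their summed implied means went from 4358 to 6934 normalized counts, with Fbln1 going from 748 to 1944 and Col3a1 from 1937 to 2625. None of the 12 was listed at 0. The 4 higher ones were Fbln1, Col3a1, Col1a1 and Col1a2, and Fbln1 and Col3a1 made up most of the rise in the sum. The 8 that did not pass had folds from 1.02 for Mfap5 to 1.72 for Tcf21, with Pdgfra at 1.04 and Dcn at 1.20. Of 12 endothelial markers 0 passed in the authors' deposited table, with 0 at an unadjusted p-value under 0.05, and their sum went from 4373 to 4445, with Kdr at 846 and 905 and Fabp4 at 857 and 793. Their SEs were large, from 0.245 for Flt1 to 0.524 for Fabp4 on the log2 scale, where the members' median was 0.107. Modest changes of these markers could therefore not be seen. Of 9 mural markers 3 were higher (Cspg4, Tagln and Myh11) and 1, Acta2, was lower, and their sum went from 18254 to 15947. Acta2, the most abundant of them, had 10454 and 4999, and without it the sum went from 7800 to 10949. Cspg4 rose from 501 to 2019, and Abcc9, with 6332 and 7773, did not pass. Together Cspg4 and Abcc9 made up most of the rise in the sum without Acta2. Pdgfrb, Rgs5, Kcnj8 and Notch3 had folds of 1.14, 1.01, 1.02 and 1.36, and none of them passed. Of 12 leukocyte markers 2 were higher, Lcp1 and Cd68, while Lyz2 had 59.7 and 40.9 normalized counts and Ptprc 3.61 and 3.33. Without the actin binders Lcp1 and Coro1a the leukocyte sum went from 181 to 160. Of the erythroid markers, Hba-a1 and Hba-a2 were listed at 0, 0 of 3 tested (Beta-s and Alas2 the most abundant) passed, and 0 had an unadjusted p-value under 0.05. Cardiomyocyte markers were lower in 7 of 10 and all 10 were detected, with Myh6 at 0.549 times and Atp2a2 at 0.537 times. The share of all genes that were lower grew with level, from 5.52% at base means of 1 to 100 to 40.1% at 1000 to 10000. All of these markers but Nkx2-5 lie above 10000, so 7 of 10 is not read as particular to them. In such sorted bulk samples a changed share of cells and a changed amount of RNA per cell cannot be told apart, and the part of other cells in the members' changes was not tested.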

How the data were processed

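Total RNA (10 ng) of sorted cells was amplified with a SMART-Seq kit over 8 PCR cycles and made into Nextera XT libraries from 500 pg of cDNA, per the labels' protocols. The submitters' processing notes name CASAVA 1.8, STAR 2.5.3a, featureCounts, Subread 1.5.2 and mm10, and the use of strand is not given in the sources used here, so reads of overlapping genes cannot be told apart. The one table used is the authors' comparison of 5 GFP and 5 dnMKL1 libraries, with DESeq2 column names per the file headers. Its base mean is a signal in normalized counts, as deposited by the authors. Fold change and SE were deposited in log2 units. The Wald statistic, a score, and the p-values come from the same deposited table; these p-values carry a Benjamini-Hochberg adjustment over 14056 genes. Recomputing them left gaps of at most 1.1e-05 for the statistic and 1.4e-07 for the adjusted p-value.

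The count test planned for values per library gave way to the authors' adjusted p-value under 0.05, as the plan named for a comparison table. Implied group means take the base mean as the average of 2 equal groups. Size factors and estimated totals were worked out from genes seen as 1 read in a single library, and the spread between libraries was solved from each SE, taken as that of a negative binomial fit. Totals and intervals cover these fits only, and reads carry no molecular identifiers. Levels per kilobase used the longest APPRIS principal transcript of GENCODE M21 (GRCm38, the build of mm10). Older symbols in the lists were matched through RefSeq. Near-identical transcripts were those with at least 97% identity over at least 75 bases (blastn). Paralogue differences took the 2 SEs as independent. The calculations were tested on simulated data and run in Python 3.11.15 with scipy 1.17.1.

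Members, roles, pairs and lists were chosen with earlier results of these data known. All members are accounted for; of other lists up to 3 genes per direction with the smallest adjusted p-values, all 6 actins and the 2 most abundant markers were to be named. Cd68, Cspg4, Tagln, Myh11, Ptprc, Hba-a1 and Hba-a2 were named after their values were seen. So were Pdgfrb, Rgs5, Kcnj8, Notch3, Col1a1, Col1a2, Mfap5, Tcf21, Pdgfra, Dcn and Flt1. P-values measure the spread between these libraries. One further pathway list is not reported here.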

Additional observations from a re-analysis of the deposited data

How the results depend on the processing

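The 20 higher and 9 lower members became 18 and 8 at an adjusted p-value under 0.01, 22 and 10 under 0.1, 19 and 9 with adjustment over all p-values, and 20 and 9 with adjustment over base means of at least 10 or with the median set to 0. Asking also for an absolute log2 fold change of at least 0.5 left 16 and 5 members, and of at least 1 left 2 and 0, since fewer genes can pass. Total-count scaling gave 30 and 4, and the same scaling without Mkl1 and the 10 most abundant genes gave 29 and 5, by the shifts of 0.29 and 0.21 that they add. The members' median log2 fold change of 0.17 was 0.46 and 0.38 under these scalings and 0.22 over base means of at least 100. Total-count scaling reversed 8 members, to 0.19 for Dstn, 0.14 for Cap2, 0.074 for Capza2, 0.10 for Arpc5l, 0.25 for Evl, 0.14 for Rdx, 0.23 for Ssh1 and 0.29 for Fhod1. It ended 3 further calls (Cfl2, Capzb and Twf2) and added 9 (Flnc, Actr2, Actr3, Arpc1b, Wasl, Lasp1, Limk2, Fhod3 and Daam1). A threshold of 0.01 ended the calls of Capza1, Rdx and Ssh3. The wider intervals for 19 pairs left 7 pairs instead of 10. Added after seeing the data were the wider pair intervals, the summed SEs, the longest-transcript lengths, the 2 coronin pairs and the leukocyte list without Lcp1 and Coro1a and the mural list without Acta2.

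No paired analysis was possible because, in what was analysed here, the table holds 1 value per gene and comparison, and the replicate numbers belong to single libraries. For the same reason the planned edgeR fit, its block, its comparison with another count tool and the fits that each leave out 1 library were not run, and whether 1 library decides a value is not known from these data. The SE limits what can be seen: for the 22 members that did not pass it ran from 0.071 to 0.55 on the log2 scale.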
